A study of Mus musculus with 25 samples.

Results

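The hemidesmosome and laminin-332 genes are Lama3, Lamb3, Itga6, Itgb4, Col17a1 and Dst. They were taken by name from the deposited log2 expression table, each represented by its probe set with the highest mean over the 25 arrays, and they are 6 of the 19937 genes tested. Each of them had 1 probe set, 10453939 for Lama3, 10352838 for Lamb3, 10472820 for Itga6, 10382713 for Itgb4, 10468344 for Col17a1 and 10345241 for Dst.

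Hemidesmosomes rivet basal epithelial cells to the basement membrane. The integrin α6β4 (Itga6, Itgb4) and the transmembrane collagen XVII (Col17a1) bind laminin-332 outside the cell, while the plakins plectin (Plec) and the epithelial form of dystonin (Dst) tie them to keratin filaments inside it. In the mammary gland they lie in the basal, myoepithelial layer that faces the basement membrane, and laminin-332, a trimer that holds the products of Lama3 and Lamb3, is secreted there. Dystonin also has forms that link other filaments in nerve and muscle.

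The study profiled mouse mammary tumors in which tamoxifen, given to adult mice aged 7 to 8 weeks, switched on PIK3CA H1047R, an activated form of the catalytic subunit of PI3-kinase. One line carried the tamoxifen-dependent Cre recombinase under K8 (keratin 8, a luminal keratin) and the other under Lgr5 (a receptor found on a subset of mammary cells). The groups were 10 K8 tumors (K8-creERT2/PIK3CA H1047R, FVB/CD1 mixed background), 10 Lgr5 tumors (Lgr5-creERT2/PIK3CA H1047R, FVB/C57/BL6 mixed background), 2 K8 glands (K8-creERT2 control mammary glands, FVB/CD1) and 3 Lgr5 glands (Lgr5-creERT2 control mammary glands, FVB/C57/BL6). Total RNA of whole tissue was amplified and hybridised to Affymetrix arrays. The labels do not say that a control carried the PIK3CA transgene, that the control mice were given tamoxifen, that the tumors came from separate animals, or how old the mice were at collection, so p-values measure the spread between these samples only. Driver and strain background changed together and cannot be told apart.

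Several arrays stood apart from their labels. Those labelled Lgr5 tumors 2, 6, 7, 8 and 9 were high in fat-cell transcripts, with a 14-gene adipocyte mean of 12.39 to 12.64 on the log2 scale. That mean reached 7.62 to 11.19 among the remaining 15 tumors and 7.52 to 9.60 among glands. The mean of 14 luminal epithelial genes was 8.99 to 9.86 in these 5 arrays, against 10.73 to 11.63 in the other tumor arrays. The mean of 16 squamous genes, which mark keratinising epithelium, was 9.06 in the array labelled K8 tumor 9 and 9.52 in that labelled Lgr5 tumor 10, inside the 8.25 to 10.23 of glands, and lower than 8.25 in every other tumor. Calls on the 6 genes and counts over lists of related genes are given with and without such arrays. The glands were lower in the adipocyte mean than Lgr5 tumors 2, 6, 7, 8 and 9 and higher in the squamous mean. Results against glands therefore compare labelled groups, and whether these glands resemble resting mammary tissue was not tested. In whole tissue, fewer cells of a type and less RNA per cell cannot be told apart.

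Of the 6 genes, 4 rose in K8 tumors relative to Lgr5 tumors: Lama3, Lamb3, Itga6 and Itgb4, by 1.47-fold (Itga6) to 2.35-fold (Lamb3). Over all genes 21.3% were called in that comparison and 12.3% were called higher (limma, Benjamini-Hochberg adjusted p under 0.05 here and throughout). Without the arrays labelled Lgr5 tumors 2, 6, 7, 8 and 9 none of the 6 and 0 of all 19937 genes were called in limma, and 1 of the 6 and 1638 of all genes had an unadjusted p under 0.05. Between Lgr5 tumors and Lgr5 glands 1 gene rose (Dst) and 1 fell (Itgb4), where 15.9% of all genes were called, 5.28% higher and 10.6% lower. Without those 5 arrays none of the 6 and 1 of all genes was called in limma, and 2 of the 6 and 3808 of all genes had an unadjusted p under 0.05. Between K8 tumors and K8 glands 1 gene rose (Dst), where 9.1% of all genes were called, 3.42% higher and 5.69% lower. The median log2 difference of the 6 genes was 0.62 between the tumor lines, -0.66 between Lgr5 tumors and their glands and 0.12 between K8 tumors and their glands, beside medians of 0.01, -0.01 and -0.01 over all genes.

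**Figure D1:**
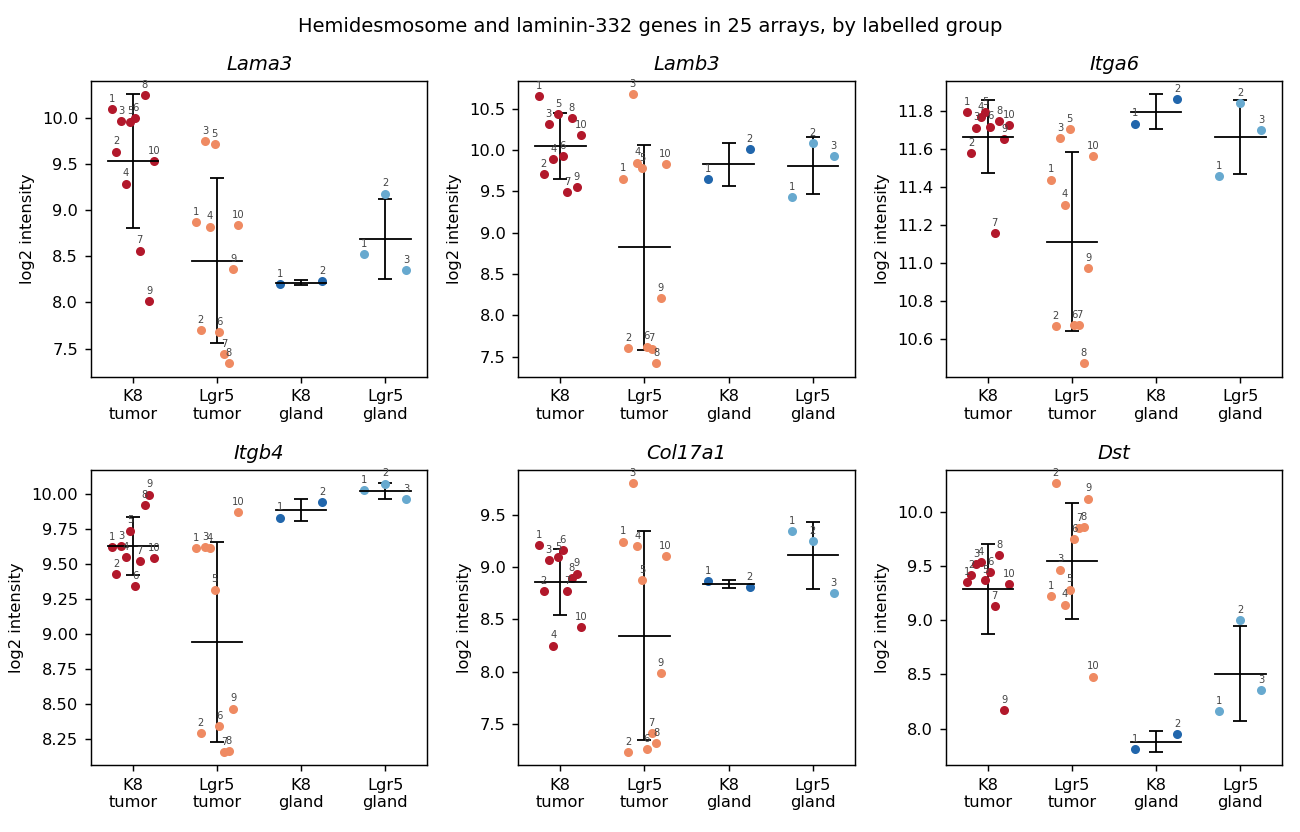
Log2 expression of each of the 6 genes (y axis, 1 panel per gene) in K8 tumors, Lgr5 tumors, K8 glands and Lgr5 glands (x axis). Points are arrays marked with their number, lines are group means and bars the SD. The arrays labelled Lgr5 tumors 2, 6, 7, 8 and 9 lie at the bottom of the Lgr5 tumor group for Lama3, Lamb3, Itga6, Itgb4 and Col17a1 and at its top for Dst, where they reach 9.74 to 10.26.

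The laminin-332 chain genes had the largest differences of the 6 between the tumor lines. Lama3 encodes the α3 chain, which carries the integrin-binding end of the trimer. Its log2 level had a lowest value of 8.02, a median of 9.80 and a highest value of 10.25 in K8 tumors, and 7.34, 8.59 and 9.75 in Lgr5 tumors. It was 8.20 and 8.23 in K8 glands and 8.53, 9.18 and 8.35 in Lgr5 glands. The tumor groups overlapped, but 5 of the 10 K8 tumors lay above every Lgr5 tumor, and the lowest Lgr5 values, 7.34 to 8.36, belonged to the 5 adipocyte-high arrays. The means were 9.53 ± 0.72 in K8 tumors and 8.45 ± 0.89 in Lgr5 tumors (SD, n = 10 each), a difference of 1.08 ± 0.33 (SE; limma adjusted p = 0.0272). Without the arrays labelled Lgr5 tumors 2, 6, 7, 8 and 9 the difference was 0.33 (limma adjusted p = 0.774), and the adjusted p was 0.0564 to 0.0585 without Lgr5 tumor 2, 6, 7 or 8 alone.

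Lama3 was also the gene in which K8 tumors and K8 glands were furthest apart after Dst. Of the 10 K8 tumors, 9 lay above both K8 glands and K8 tumor 9 lay below them. The difference of 1.32 ± 0.57 did not pass the test (limma adjusted p = 0.154). It was 1.48 without K8 tumor 9 (limma adjusted p = 0.0574) and also without all 7 arrays that stood apart (limma adjusted p = 0.00642). Of those 7 only K8 tumor 9 is in this comparison, and the others bear on the shared spread and the adjustment alone. With these groups fitted alone it was 1.32 (limma adjusted p = 0.0941), and with array weights 1.50 (limma adjusted p = 0.00234). Against Lgr5 glands, Lgr5 tumors differed by -0.23 ± 0.49 (limma adjusted p = 0.793), with 2 of 10 tumors above and 4 below all 3 glands. That difference was 0.51 without the adipocyte-high arrays (limma adjusted p = 0.535).

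Lamb3 encodes the β3 chain, which is found in laminin-332 and joins the trimer through its coiled coil. Its lowest, median and highest levels were 9.49, 10.05 and 10.65 in K8 tumors and 7.42, 8.93 and 10.67 in Lgr5 tumors. K8 glands had 9.65 and 10.01, and Lgr5 glands had 9.43, 10.08 and 9.93. The Lgr5 tumors formed separate sets, with 7.42 to 8.21 in the 5 adipocyte-high arrays and 9.65 to 10.67 in the other 5, which overlapped both the K8 tumors and the glands. The means were 10.05 ± 0.40 in K8 tumors and 8.82 ± 1.24 in Lgr5 tumors (SD, n = 10 each), a difference of 1.23 ± 0.37 (limma adjusted p = 0.0263). The difference was 0.10 without the adipocyte-high arrays (limma adjusted p = 0.904), and the adjusted p was 0.0555 to 0.0563 without Lgr5 tumor 2, 6, 7 or 8 alone. Lamb3 differed by 0.23 ± 0.65 between K8 tumors and K8 glands (limma adjusted p = 0.901) and by -0.99 ± 0.55 between Lgr5 tumors and Lgr5 glands (limma adjusted p = 0.223).

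The promoter of Lamb3 is shown because Lamb3 had the widest range over the arrays, 3.25 log2 units. The 250 bases before its first listed start (chr1:193301744-193301993, plus strand, GRCm38.p6, sequence from RefSeq) hold 2 CG dinucleotides, printed in capitals, and are 58.8% G or C.

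Lamb3 start 1: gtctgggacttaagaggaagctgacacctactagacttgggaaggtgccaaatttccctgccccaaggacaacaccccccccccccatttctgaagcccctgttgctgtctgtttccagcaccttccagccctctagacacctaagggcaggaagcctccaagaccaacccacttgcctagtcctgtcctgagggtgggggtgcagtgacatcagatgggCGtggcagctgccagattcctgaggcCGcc

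The integrin chains differed less between the tumor lines in size and spread. Itga6 encodes the α6 chain, which binds laminin and pairs with β4 in hemidesmosomes or with β1 elsewhere. Its lowest, median and highest levels were 11.16, 11.72 and 11.80 in K8 tumors and 10.47, 11.14 and 11.71 in Lgr5 tumors. K8 glands had 11.73 and 11.86, and Lgr5 glands had 11.46, 11.84 and 11.70. Of the K8 tumors, 7 lay above every Lgr5 tumor, and K8 tumor 7 was the lowest of its group. The 5 adipocyte-high arrays had 10.47 to 10.98 and the other 5 Lgr5 tumors 11.31 to 11.71. The means were 11.67 ± 0.19 in K8 tumors and 11.11 ± 0.47 in Lgr5 tumors (SD, n = 10 each), a difference of 0.55 ± 0.15 (limma adjusted p = 0.0172). It passed the test in every removal of a single array, and was 0.13 without the adipocyte-high arrays together (limma adjusted p = 0.712).

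Between Lgr5 tumors and Lgr5 glands Itga6 differed by -0.55 ± 0.22 (limma adjusted p = 0.0829). It passed without Lgr5 tumor 3 (adjusted p = 0.0429), 5 (adjusted p = 0.0428) or 10 (adjusted p = 0.0437) in limma. All 10 Lgr5 tumors lay below both K8 glands, and 7 of them lay below all 3 Lgr5 glands. Between K8 tumors and K8 glands the difference was -0.13 ± 0.26 (limma adjusted p = 0.839), with 6 of 10 tumors below both glands.

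Itgb4 encodes the β4 chain, whose long cytoplasmic tail binds plectin and which pairs only with α6. Its lowest, median and highest levels were 9.34, 9.59 and 10.00 in K8 tumors and 8.16, 8.89 and 9.87 in Lgr5 tumors. K8 glands had 9.83 and 9.94, and Lgr5 glands had 10.03, 10.07 and 9.96. All 10 Lgr5 tumors lay below all 3 Lgr5 glands, and the glands of both lines lay within 9.83 to 10.07. The 5 adipocyte-high arrays had 8.16 to 8.47, against 9.32 to 9.87 in the other 5 Lgr5 tumors, so both sets were under the Lgr5 glands.

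Itgb4 averaged 8.95 ± 0.71 in Lgr5 tumors (SD, n = 10) and 10.02 ± 0.06 in Lgr5 glands (SD, n = 3), and fell by 1.07 on the log2 scale (SE 0.31, limma adjusted p = 0.0257). The call was lost without Lgr5 gland 1 (adjusted p = 0.111), gland 2 (adjusted p = 0.0735) or gland 3 (adjusted p = 0.0817) in limma, with differences of -1.07, -1.05 and -1.10, and with these groups fitted alone (-1.07, limma adjusted p = 0.126). It was also lost without the adipocyte-high arrays, where the difference was -0.41 (limma adjusted p = 0.131). Without all 7 arrays that stood apart Itgb4 passed, with -0.48 (limma adjusted p = 0.00735). Those 7 hold the lowest Itgb4 values and the highest of each tumor group, so leaving them out narrows the spread itself. That pass is therefore no further support. Between the tumor lines Itgb4 averaged 9.63 ± 0.21 in K8 tumors and 8.95 ± 0.71 in Lgr5 tumors (SD, n = 10 each), a difference of 0.68 ± 0.21 (limma adjusted p = 0.0282). That difference was 0.02 without the adipocyte-high arrays (limma adjusted p = 0.96), and the adjusted p was 0.0536 to 0.0604 without Lgr5 tumor 2, 6, 7, 8 or 9 alone. Between K8 tumors and K8 glands it was -0.26 ± 0.37 (limma adjusted p = 0.757).

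**Figure D2:**
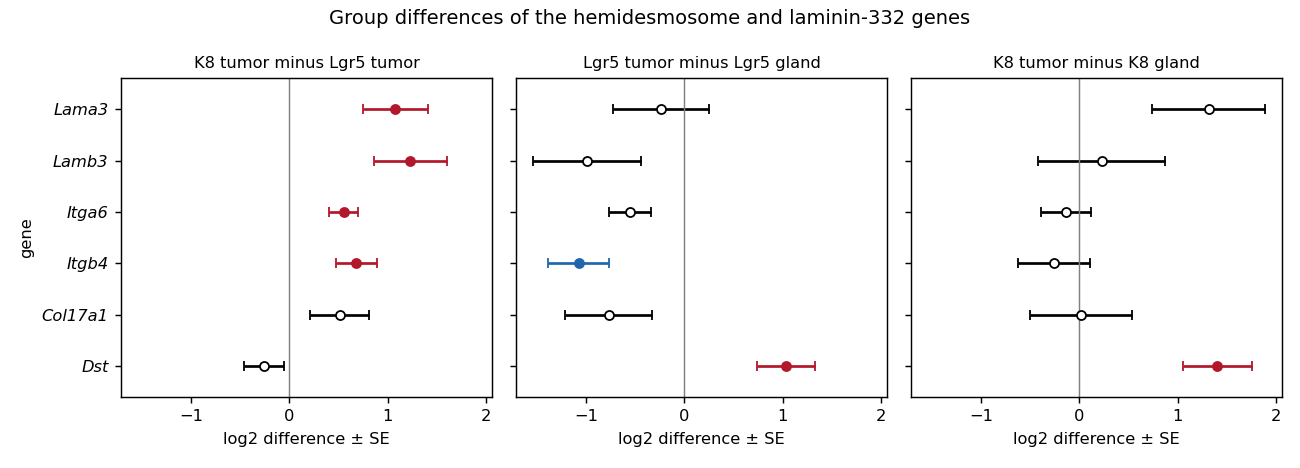
Log2 differences (x axis) of the 6 genes (y axis) for K8 tumors minus Lgr5 tumors, Lgr5 tumors minus Lgr5 glands and K8 tumors minus K8 glands, with bars of 1 SE. Filled points passed limma's test at an adjusted p under 0.05 (red higher, blue lower) and open points did not. Dst lies at 1.04 and 1.40 above the glands in the Lgr5 and K8 lines, and Itgb4 at -1.07 in the Lgr5 line.

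Col17a1 encodes collagen XVII, a transmembrane protein whose shed outer part lies in the basement membrane. Its lowest, median and highest levels were 8.25, 8.91 and 9.21 in K8 tumors and 7.23, 8.43 and 9.80 in Lgr5 tumors. K8 glands had 8.87 and 8.81, and Lgr5 glands had 9.34, 9.25 and 8.75. The 5 adipocyte-high arrays had 7.23 to 7.99 and the other 5 Lgr5 tumors 8.87 to 9.80, so Lgr5 tumors included both the lowest and the highest value of all 25 arrays. No comparison of Col17a1 passed the test. The difference was 0.51 ± 0.30 between K8 tumors and Lgr5 tumors (limma adjusted p = 0.231), -0.77 ± 0.44 between Lgr5 tumors and Lgr5 glands (limma adjusted p = 0.239) and 0.02 ± 0.52 between K8 tumors and K8 glands (limma adjusted p = 0.992). Without the adipocyte-high arrays the difference between the tumor lines was -0.39 (limma adjusted p = 0.588).

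Col17a1 is shown beside Lamb3 because its 250 bases before the start (chr19:47692043-47692292, minus strand, GRCm38.p6, sequence from RefSeq) are of another make-up, with 46.0% G or C. They hold TATAAA at 140 and at 91 bases before the start, printed in capitals. Of 32851 mouse promoter windows in the same RefSeq table, 12.4% held TATAAA on either strand and 6.75% held TGANTCA, the letters bound by AP-1, which overlap no TATAAA. No TGANTCA was in the windows of Lamb3, Col17a1 or Dst.

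Col17a1: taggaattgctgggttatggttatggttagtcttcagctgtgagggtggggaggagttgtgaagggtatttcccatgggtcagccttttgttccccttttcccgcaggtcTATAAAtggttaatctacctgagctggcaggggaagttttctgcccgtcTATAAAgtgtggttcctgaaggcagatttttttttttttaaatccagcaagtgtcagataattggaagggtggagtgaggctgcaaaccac

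Dst, whose epithelial product links the hemidesmosome to keratin filaments, did not follow the other genes across the arrays. Its lowest, median and highest levels were 8.17, 9.39 and 9.60 in K8 tumors and 8.48, 9.60 and 10.26 in Lgr5 tumors. K8 glands had 7.81 and 7.95, and Lgr5 glands had 8.16, 9.00 and 8.36. All 10 K8 tumors lay above both K8 glands, and 9 of 10 Lgr5 tumors lay above all 3 Lgr5 glands. The lowest tumors were K8 tumor 9 with 8.17 and Lgr5 tumor 10 with 8.48, both among the squamous-high arrays, and the highest were the 5 adipocyte-high arrays with 9.74 to 10.26.

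Dst averaged 9.29 ± 0.41 in K8 tumors (SD, n = 10) against 7.81 and 7.95 in K8 glands, and was 2.65-fold higher, a log2 difference of 1.40 ± 0.35 (limma adjusted p = 0.02). The call rested on having both K8 glands. It was lost without gland 1 or gland 2, where a single K8 gland was left and few of all genes were called. The differences were then 1.34 and 1.47. In the Lgr5 line Dst averaged 9.54 ± 0.53 in tumors (SD, n = 10), and was 2.05-fold higher than in glands, a log2 difference of 1.04 ± 0.29 (limma adjusted p = 0.0238). That call was lost without Lgr5 gland 1 (adjusted p = 0.154) or gland 3 (adjusted p = 0.101) in limma, with differences of 0.86 and 0.96, and with these groups fitted alone (1.04, limma adjusted p = 0.0815). It was also lost without the adipocyte-high arrays, where the difference was 0.61 (limma adjusted p = 0.241). With all 7 arrays that stood apart left out, the differences were 1.53 in the K8 line (limma adjusted p = 9.1e-06) and 0.77 in the Lgr5 line (limma adjusted p = 0.00305). Those 7 hold the highest Dst values of all arrays and the lowest among tumors, so leaving them out narrows the spread itself. The smaller p-values are therefore no further support. Between the tumor lines Dst differed by -0.26 ± 0.20 (limma adjusted p = 0.386).

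The listed starts of Dst lie 148665 bases apart, and both are shown, with each CG in capitals, because 1 value stands for them on the array. The first (chr1:34011345-34011594, plus strand, GRCm38.p6, sequence from RefSeq) has 22 CG and 68.8% G or C, and 85.2% of the 32851 promoter windows have fewer CG. The second (chr1:34160010-34160259, plus strand) has 5 CG and 45.2% G or C, and 44.4% of windows have fewer. The probe set does not separate transcripts from these starts.

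Dst start 1: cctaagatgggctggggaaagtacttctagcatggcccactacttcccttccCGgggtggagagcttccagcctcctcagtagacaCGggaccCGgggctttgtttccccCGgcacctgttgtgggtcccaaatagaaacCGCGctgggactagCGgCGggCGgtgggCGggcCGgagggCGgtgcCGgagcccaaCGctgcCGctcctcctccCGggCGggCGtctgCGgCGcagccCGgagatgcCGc

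Dst start 2: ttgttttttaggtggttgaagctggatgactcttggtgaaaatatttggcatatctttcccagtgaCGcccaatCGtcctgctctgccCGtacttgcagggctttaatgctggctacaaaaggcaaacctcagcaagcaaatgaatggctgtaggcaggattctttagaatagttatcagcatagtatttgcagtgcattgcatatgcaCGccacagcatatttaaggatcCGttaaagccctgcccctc

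**Figure D3:**
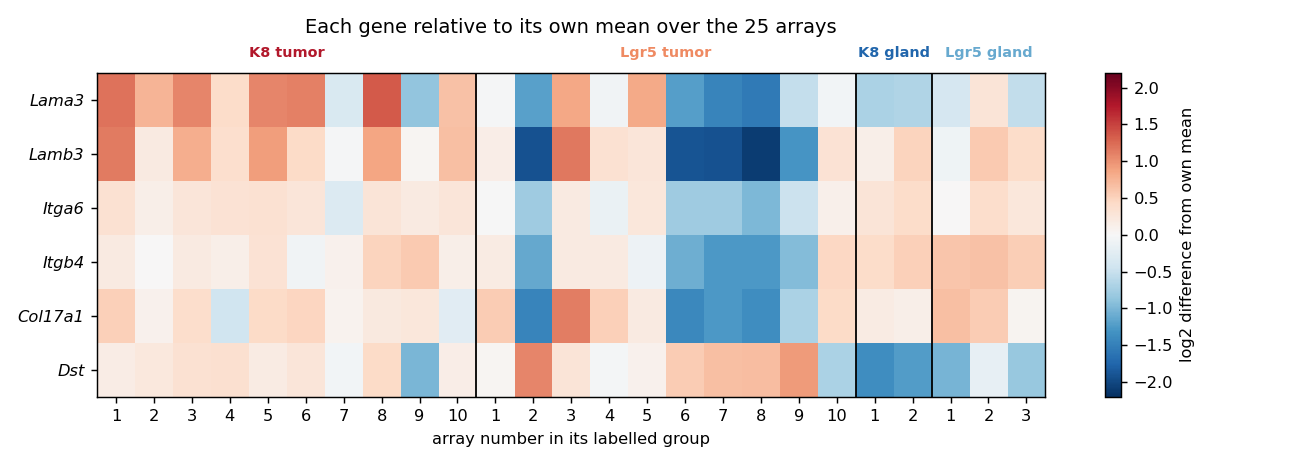
Log2 level of each of the 6 genes (rows) minus its own mean over the 25 arrays, by array (columns, numbered within each group). Lamb3, Itga6, Itgb4 and Col17a1 have their 5 lowest values, and Dst its 5 highest, in the arrays labelled Lgr5 tumors 2, 6, 7, 8 and 9.

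Other cell markers moved with these values. In the 5 adipocyte-high arrays the mean of 14 basal and myoepithelial genes was 9.22 to 10.01, against 10.65 to 11.49 in Lgr5 tumors 1, 3, 4 and 5 and 10.52 to 11.82 in K8 tumors without tumor 9. It was 9.06 in K8 tumor 9, 9.77 in Lgr5 tumor 10 and 9.09 to 10.27 in glands. Krt5, the basal keratin, was 8.38 to 9.81 in the adipocyte-high arrays, 11.03 to 12.34 in the other tumors and 11.19 to 11.75 in glands. The mean of 12 endothelial genes was 9.71 to 9.92 in the adipocyte-high arrays, 8.82 to 9.70 in K8 tumors without tumor 9, 7.93 in K8 tumor 9 and 7.82 to 8.42 in glands. Of these lists, 12 of 14 adipocyte and 11 of 12 endothelial genes rose and 14 of 16 squamous genes fell between Lgr5 tumors and Lgr5 glands. Between K8 tumors and K8 glands 10 of 14 basal and myoepithelial and 4 of 12 endothelial genes rose and 13 of 16 squamous genes fell. Those 10 included Vim and the contractile genes Myh11, Acta2 and Cnn1. Krt5 (0.72), Krt14 (-0.90), Krt17 (-0.51) and Trp63 (0.70) did not pass there (limma adjusted p = 0.4 to 0.803). In K8 tumors relative to Lgr5 tumors 14 of 14 adipocyte genes fell, and 10 of 14 luminal epithelial and 3 of 14 basal genes rose. Of 11 fibroblast genes 8 rose in the Lgr5 line and 6 in the K8 line against glands. Of 13 cell cycle genes 11 fell between Lgr5 tumors and Lgr5 glands, 0 passed in limma between K8 tumors and K8 glands, where 4 had an unadjusted p under 0.05, and 13 rose in K8 tumors relative to Lgr5 tumors. Between K8 tumors and K8 glands 24.6% of all genes had an unadjusted p under 0.05 in limma. The cell cycle mean was 8.42 to 9.38 in K8 tumors, 6.71 to 7.84 in the adipocyte-high arrays, 8.12 to 9.49 in the other 5 Lgr5 tumors and 9.34 to 9.88 in glands. With all 7 arrays that stood apart left out, 11 of 13 cell cycle genes fell in the Lgr5 line and 8 in the K8 line against glands, and 10 of 12 endothelial genes rose in the Lgr5 line and 12 in the K8 line. In that fit 18% of all genes were called in the Lgr5 line and 26.8% in the K8 line. Krt5, Krt14 and Trp63 stand both in the basal list and among the partner, p63 and AP-1 genes. The part of these cell types and of cell division in the differences of the 6 genes was not tested.

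The glands of the lines and the sizes of the tumor-gland differences were compared as well. Between K8 glands and Lgr5 glands none of the 6 genes passed limma's test, where 0% of all genes were called, and none had an unadjusted p under 0.05, which 1.6% of all genes had. The differences there ran from -0.63 ± 0.41 for Dst to 0.13 ± 0.30 for Itga6. The tumor-gland difference of the K8 line minus that of the Lgr5 line passed for none of the 6 genes either, with 0% of all genes called, and again none had an unadjusted p under 0.05, which 4.43% of all genes had. It was 1.55 ± 0.75 for Lama3, 1.21 ± 0.85 for Lamb3, 0.82 ± 0.48 for Itgb4 and 0.37 ± 0.46 for Dst. So Itgb4, called in the Lgr5 line and not in the K8 line, was not shown to differ between them (limma adjusted p = 0.781).

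Transcripts of 10 partner genes, for proteins of hemidesmosomes, keratin filaments or other attachments to the matrix, were also measured. Between K8 and Lgr5 tumors 6 rose, 1 fell and 3 did not pass, with a median difference of 0.57. Those that rose were Krt5 (1.49 ± 0.46, limma adjusted p = 0.0268), Fermt1, which encodes the focal adhesion protein kindlin-1 (0.69 ± 0.22, adjusted p = 0.0349), the integrin chain gene Itga3 (0.68 ± 0.24, adjusted p = 0.044), the plakin gene Plec (0.46 ± 0.12, adjusted p = 0.0163), Erbin, whose product binds the β4 tail (0.44 ± 0.11, adjusted p = 0.0148), and Col7a1, which encodes the anchoring fibril collagen (0.27 ± 0.08, adjusted p = 0.0203). Cd151, a tetraspanin gene whose product binds laminin-binding integrins, fell by 0.27 (SE 0.08, limma adjusted p = 0.0268). Krt14 (1.08 ± 0.45), Lad1, which encodes the anchoring filament protein ladinin (0.91 ± 0.34), and Itgb1 (0.08 ± 0.06) did not pass. With the adipocyte-high arrays left out, 0 of 10 partners passed in limma and 0 had an unadjusted p under 0.05.

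Against glands, in Lgr5 tumors 3 of 10 partners fell and 7 did not pass, with a median of -0.50: Krt14 fell by 1.98 (SE 0.66, limma adjusted p = 0.0445), Lad1 by 1.83 (SE 0.50, adjusted p = 0.0198) and Fermt1 by 1.61 (SE 0.33, adjusted p = 0.00882). In K8 tumors 2 of 10 rose and 8 did not pass, with a median of 0.31: Col7a1 by 0.42 ± 0.13 (limma adjusted p = 0.0472) and Itgb1 by 0.36 ± 0.10 (adjusted p = 0.0338). Krt14 (-0.90 ± 0.77), Lad1 (-0.97 ± 0.59) and Fermt1 (-0.95 ± 0.39) did not pass in K8 tumors, and 0 of 10 partners passed in limma for the difference between the tumor-gland contrasts of the lines, where 3 had an unadjusted p under 0.05. When the adipocyte-high arrays were left out, 0 of 10 passed in limma in the Lgr5 line, where 4 had an unadjusted p under 0.05, and in the K8 line 3 rose and 2 fell. When all 7 arrays that stood apart were left out, 1 rose and 3 fell in the Lgr5 line, and 4 rose and 3 fell in the K8 line. Over all genes 12.8% were called in the K8 line without the adipocyte-high arrays. Without all 7 it was 18% in the Lgr5 line and 26.8% in the K8 line. The list counts that follow are also to be read beside these shares.

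**Figure D4:**
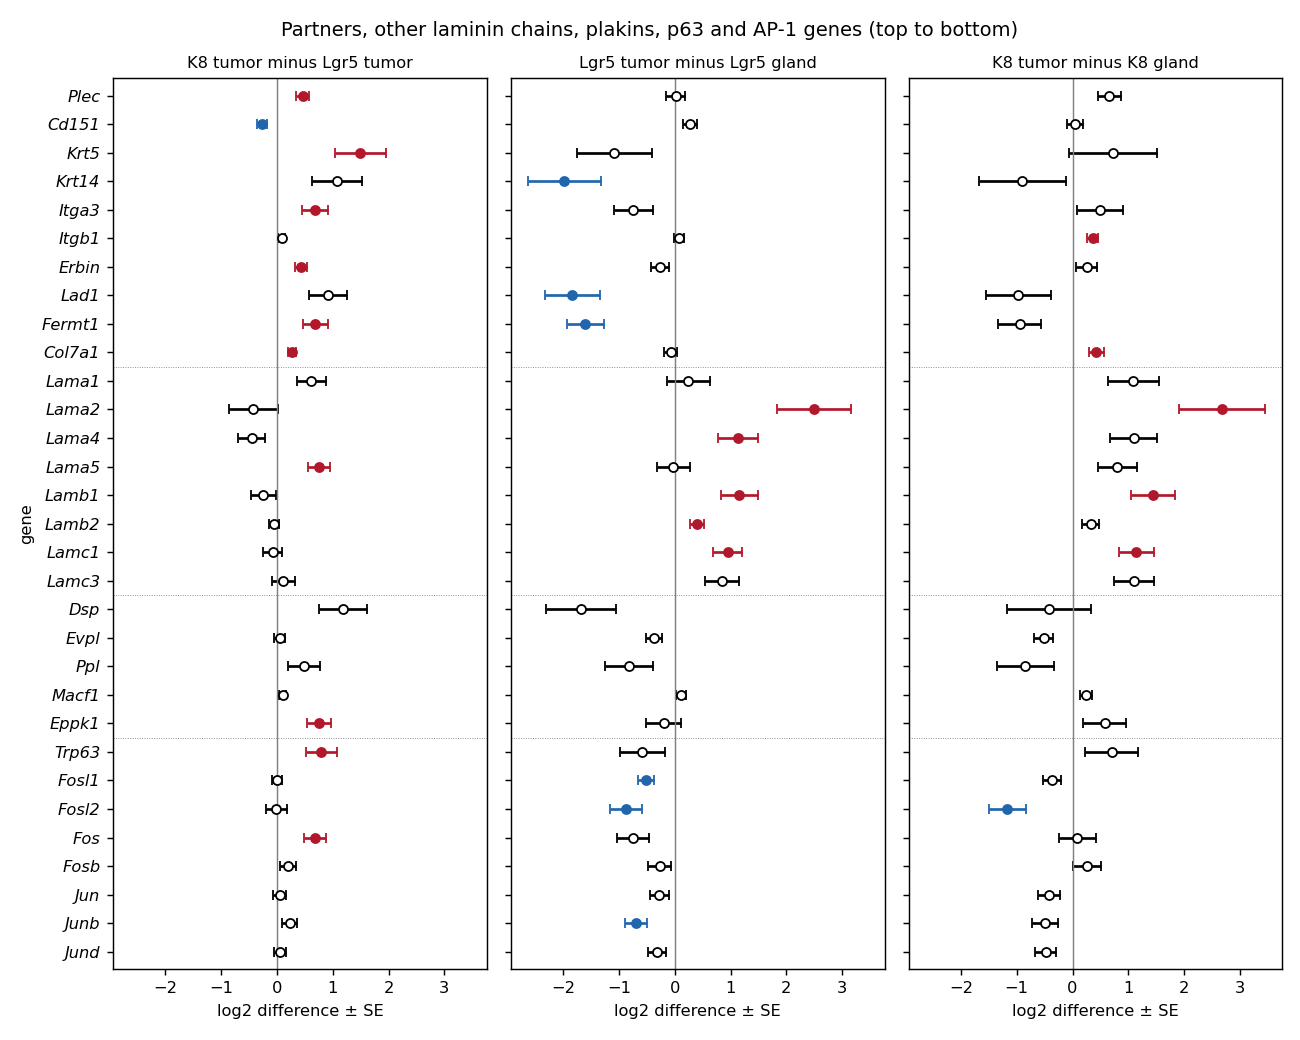
Log2 differences (x axis, the same scale in each panel) of the hemidesmosome partner, other laminin chain, other plakin, and p63 and AP-1 genes (y axis) for K8 tumors minus Lgr5 tumors, Lgr5 tumors minus Lgr5 glands and K8 tumors minus K8 glands, with bars of 1 SE. Filled points passed limma's test (red higher, blue lower). The laminin chain Lama2 lies at 2.50 and 2.68 above the glands in the Lgr5 and K8 lines, and Lad1 and Fermt1 at -1.83 and -1.61 in the Lgr5 line.

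Among the other laminin chains, Lama2, Lamb1 and Lamc1 were called in both lines against glands. Of 8 chains, 5 rose and 0 fell between Lgr5 tumors and Lgr5 glands (median 0.90), and 3 rose and 0 fell between K8 tumors and K8 glands (median 1.10). Lama2, the α2 chain gene best known from muscle and nerve basement membranes, rose by 2.50 ± 0.66 in the Lgr5 line (limma adjusted p = 0.018) and 2.68 ± 0.77 in the K8 line (limma adjusted p = 0.0337). Lamb1 and Lamc1, the widely expressed β1 and γ1 chain genes, rose by 1.16 ± 0.34 and 0.95 ± 0.26 in the Lgr5 line and by 1.44 ± 0.40 and 1.15 ± 0.31 in the K8 line (limma adjusted p = 0.0209 to 0.0284 over the 4 values). Lama4, an endothelial laminin chain gene, rose by 1.13 ± 0.35 (limma adjusted p = 0.0339) and Lamb2 by 0.40 ± 0.13 (limma adjusted p = 0.0409) in the Lgr5 line. Without the adipocyte-high arrays 0 of 8 passed in limma in the Lgr5 line, where 3 had an unadjusted p under 0.05, and 4 rose in the K8 line. Without all 7 arrays that stood apart 5 of 8 rose in the Lgr5 line and 8 of 8 in the K8 line. Of all genes 18% and 26.8% were called there. Between the tumor lines 1 of 8 passed: Lama5, an α chain gene of epithelial basement membranes, rose by 0.75 ± 0.20 (limma adjusted p = 0.0172).

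Among 13 other basement membrane genes, 2 rose and 1 fell in the Lgr5 line and 4 rose in the K8 line against glands. Nid1, which encodes the laminin linker nidogen, rose by 1.92 ± 0.46 in the Lgr5 line (limma adjusted p = 0.0134) and 2.10 ± 0.55 in the K8 line (limma adjusted p = 0.0239), and Hspg2, which encodes perlecan, by 1.10 ± 0.30 (limma adjusted p = 0.0191) and 1.44 ± 0.35 (limma adjusted p = 0.0188). Col4a1 and Col4a2, the common collagen IV chain genes, rose by 1.77 ± 0.48 (limma adjusted p = 0.0283) and 1.69 ± 0.45 (limma adjusted p = 0.0261) in the K8 line. Fras1 fell by 0.28 in the Lgr5 line (SE 0.06, limma adjusted p = 0.00967). With the adipocyte-high arrays left out, 0 of 13 passed in limma in the Lgr5 line, where 3 had an unadjusted p under 0.05, and 5 rose in the K8 line. With all 7 arrays that stood apart left out, 2 rose and 1 fell in the Lgr5 line, and 9 rose and 1 fell in the K8 line. Between the tumor lines 4 of 13 rose: Frem2 by 1.52 ± 0.37 (limma adjusted p = 0.0141), Agrn, which encodes the heparan sulfate proteoglycan agrin, by 0.89 ± 0.23 (limma adjusted p = 0.0162), and the less common collagen IV chain genes Col4a5, by 0.71 ± 0.16 (limma adjusted p = 0.0128), and Col4a6, by 0.87 ± 0.25 (limma adjusted p = 0.0224). Of these 0 passed in limma without the adipocyte-high arrays, where 1 of 13 had an unadjusted p under 0.05.

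Of 14 other integrin chain genes, Itga3 and Itgb1 among them, 4 rose and 2 fell between the tumor lines. Itga2, the collagen-binding α2 chain gene, rose by 0.81 ± 0.19 (limma adjusted p = 0.0137) and Itgb8 by 1.00 ± 0.34 (limma adjusted p = 0.0399). Itga7, the laminin-binding α7 chain gene of muscle, fell by 1.68 (SE 0.33, limma adjusted p = 0.0118) and Itga4 by 0.73 (SE 0.18, limma adjusted p = 0.0143), and the same genes were higher in Lgr5 tumors than in Lgr5 glands by 2.08 ± 0.49 (limma adjusted p = 0.0122) and 0.82 ± 0.26 (limma adjusted p = 0.0367). Against Lgr5 glands Itga2 fell by 1.02 in Lgr5 tumors (SE 0.28, limma adjusted p = 0.021). Against glands 2 of 14 rose and 1 fell in the Lgr5 line and 3 rose in the K8 line. When the adipocyte-high arrays were left out, 0 of 14 passed in limma between the tumor lines and in the Lgr5 line, where 3 and 5 had an unadjusted p under 0.05, and 6 rose in the K8 line. When all 7 arrays that stood apart were left out, 3 rose and 1 fell in the Lgr5 line and 8 rose and 1 fell in the K8 line.

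Of 6 plakin genes 2 rose between the tumor lines, Plec and epiplakin (Eppk1, 0.75 ± 0.22, limma adjusted p = 0.0223), and 0 passed in limma against glands in either line, where 2 in the Lgr5 line and 3 in the K8 line had an unadjusted p under 0.05. Of all genes, 32% in the Lgr5 line and 24.6% in the K8 line had such a p. Without the adipocyte-high arrays 0 of 6 passed in limma between the tumor lines and in the Lgr5 line, where 0 and 1 had an unadjusted p under 0.05, and 1 rose and 1 fell in the K8 line. Without all 7 arrays that stood apart 1 rose and 1 fell in each line.

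Of 8 genes for proteases that process laminin-332 or shed collagen XVII, 2 rose and 1 fell between the tumor lines: Hpn, which encodes the membrane serine protease hepsin, rose by 0.78 ± 0.24 (limma adjusted p = 0.0265), Adam10, a membrane sheddase gene, rose by 0.54 ± 0.14 (limma adjusted p = 0.0165), and Adam9, of the same family as Adam10, fell by 0.19 (SE 0.06, limma adjusted p = 0.0308). Mmp2, which encodes a matrix metalloproteinase, rose in both lines against glands, by 1.09 ± 0.22 in the Lgr5 line (limma adjusted p = 0.00843) and 1.45 ± 0.26 in the K8 line (limma adjusted p = 0.00821). Bmp1, whose product trims laminin chains, rose by 0.82 ± 0.23 in the K8 line (limma adjusted p = 0.0307), and Adam17 fell by 0.49 in the Lgr5 line (SE 0.12, limma adjusted p = 0.013). With the adipocyte-high arrays left out, 0 of 8 passed in limma between the tumor lines and in the Lgr5 line, where 2 and 5 had an unadjusted p under 0.05, and 3 rose and 1 fell in the K8 line. With all 7 arrays that stood apart left out, 2 rose and 1 fell in the Lgr5 line and 3 rose and 1 fell in the K8 line.

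Of the 8 genes for p63 and the AP-1 factors, which are known regulators of basal keratinocyte genes, 2 rose between the tumor lines, Trp63 by 0.79 ± 0.27 (limma adjusted p = 0.0435) and Fos by 0.68 ± 0.19 (limma adjusted p = 0.0203). Against glands 3 fell in the Lgr5 line and 1 in the K8 line. Fosl2 fell in both, by 0.87 (SE 0.28, limma adjusted p = 0.0379) in the Lgr5 line and 1.17 (SE 0.33, limma adjusted p = 0.0309) in the K8 line, and Junb and Fosl1 fell by 0.69 (SE 0.20, limma adjusted p = 0.0241) and 0.52 (SE 0.14, limma adjusted p = 0.0193) in the Lgr5 line. When the adipocyte-high arrays were left out, 0 of 8 passed in limma between the tumor lines and in the Lgr5 line, where 0 and 2 had an unadjusted p under 0.05, and 1 fell in the K8 line. When all 7 arrays that stood apart were left out, 3 fell in the Lgr5 line, and 1 rose and 4 fell in the K8 line.

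Within the set, Lamb3 and Itga6 followed each other most closely over the 25 arrays, with a Pearson r of 0.941. Itga6 and Itgb4 had 0.892, Lamb3 and Col17a1 0.891, Lamb3 and Itgb4 0.882, and Lama3 and Lamb3 0.820. Lama3 and Itgb4 had 0.527, and in K8 glands and in K8 tumor 9 Lama3 was low among the arrays while Itgb4 was not. Dst had -0.733 with Itgb4, -0.537 with Itga6, -0.520 with Col17a1, -0.423 with Lamb3 and 0.093 with Lama3. These values are descriptions: the arrays share their labels and fall into separate sets.

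**Figure D5:**
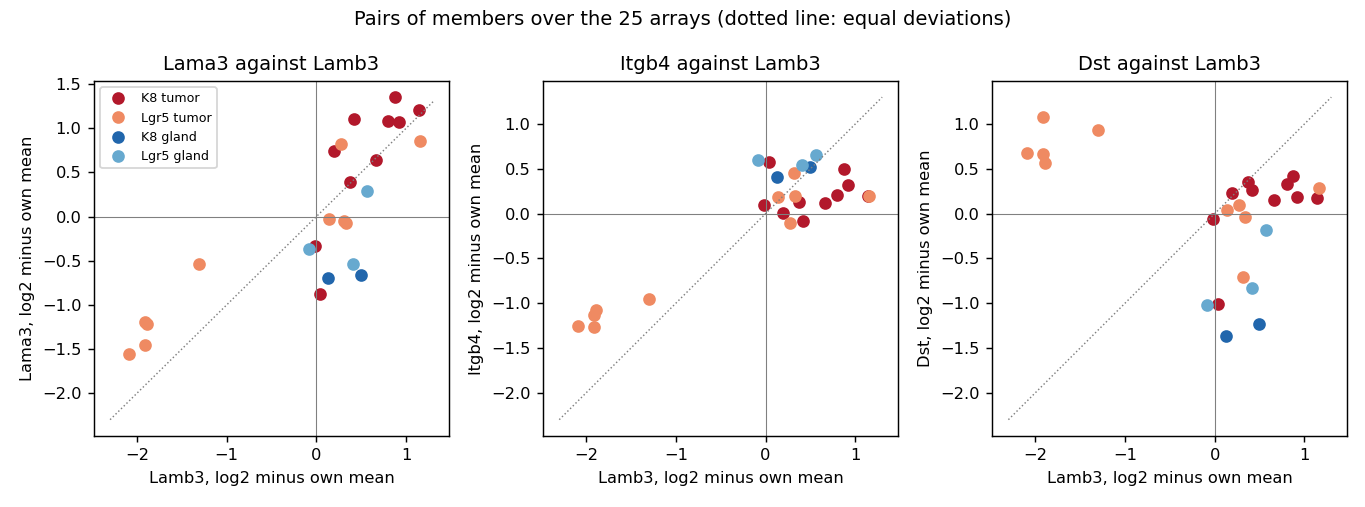
Log2 level minus own mean over the 25 arrays of Lama3, Itgb4 and Dst (y axes) against that of Lamb3 (x axis), 1 point per array, coloured by group, with a dotted line of equal deviations. Lama3 and Lamb3 are both low in the adipocyte-high Lgr5 arrays, Itgb4 is low in those arrays alone, and Dst is at its highest in those Lgr5 arrays and at its lowest in K8 glands.

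Within the 10 K8 tumors, 12 of 15 pairs had a Pearson r above 0, and 3 had an adjusted p under 0.05 by Pearson's r and 0 by Spearman's rho (100000 permutations, two-sided, Benjamini-Hochberg over the 15 pairs). Lamb3 and Itga6 had r = 0.691 (permutation adjusted p = 0.0209) and rho = 0.830 (permutation adjusted p = 0.0663), and r = 0.703 without K8 tumors 1 and 7, the tumors furthest from the median of Lamb3. Lama3 and Lamb3 had r = 0.810 (permutation adjusted p = 0.0209) and rho = 0.794 (permutation adjusted p = 0.0663), and r = 0.652 without K8 tumors 7 and 9. Lama3 and Dst had r = 0.842 (permutation adjusted p = 0.0209) and rho = 0.6 (permutation adjusted p = 0.27), but r = 0.144 without K8 tumors 7 and 9, so that relation rests on those tumors. The Lgr5 tumors form sets of 5, too few for a correlation within each.

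By Pearson's r over the 25 arrays, the genes most like the mean of the 6 were Fat1 (0.975), Igfbp3 (0.972), Agrn (0.969), Trp63 (0.967), Nav2 (0.966), Krt5 (0.965), Map2 (0.964), Tspan2 (0.962), Ccn2 (0.962) and Man1a2 (0.961). The closest to single genes were Ctnnd2 for Lama3 (0.970), Golph3 for Lamb3 (0.978), Bex3 for Itga6 (0.972), Myo1e for Itgb4 (0.983), Tns4 for Col17a1 (0.947) and Ehd2 for Dst (0.975).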

How the data were processed

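Total RNA of mammary tumors and control mammary glands was amplified from an input of 100 ng and hybridised to Affymetrix whole-transcript arrays, per the labels' protocols. The authors deposited 1 table of log2 expression values for 34760 probe sets and 25 arrays, with values from 4.13 to 13.9. The submitters' processing notes name affy, while normalization, probe-level summary and genome build are not given in the sources read. Array medians lay between 6.34 and 6.43 (log2), and the highest correlation between arrays was 0.995.

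Gene symbols came from the platform's annotation: 21640 probe sets had 1 symbol, 1321 had several and 11799 had none listed, and 1 probe set per symbol, that with the highest mean, left 19937 genes. All 4 groups were fitted in 1 model without covariates (limma 3.58.1, R 4.3.3, eBayes), with Benjamini-Hochberg adjustment over all genes and a threshold of 0.05. The fit was tested on simulated data, where it recovered 84% to 90% of genes changed by 1 log2 unit in the 3 comparisons that involve tumors, with 7 to 14 false calls.

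The genes and lists were chosen with earlier results of these data known. Besides the 6 genes, the text names all measured partners, other laminin chains, plakins, and p63 and AP-1 genes where they passed, of other lists some of the 4 with the smallest adjusted p in a comparison, and the genes most correlated with the set or its members, leaving out predicted and RNA genes. Levels are not compared between genes, since probe sets differ in brightness. The number of arrays limits precision, and with 2 K8 glands the spread is assumed equal across groups. No file or label names a batch. Alternatives changed the samples fitted, the probe set, the low-value filter, the normalization, array weights, eBayes, covariates, the replicate block and each array in turn. Promoter windows came from RefSeq (GRCm38.p6), and 3 of the 6 genes have a window printed here.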

Additional observations from a re-analysis of the deposited data

Results flagged for a closer look

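In 2 of the 12 combinations of gene and tumor group, an array lay far from the other arrays of its group by Dixon's criterion, which chance meets in about 1 of 20. Itga6 was 11.16 in K8 tumor 7, where the other K8 tumors lay close together up to 11.80. Dst was 8.17 in K8 tumor 9, where the other K8 tumors had 9.13 to 9.60, and the squamous list mean of that array, 9.06, lay among the values of glands.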

How the results depend on the processing

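Of the members passing, counts differed by over 1.5 times as follows. For Lgr5 tumors against Lgr5 glands (2 as reported) 0 genes passed when the fit held these groups alone, when it took the adipocyte or the luminal epithelial mean as a covariate, or when it left out Lgr5 tumors 2, 6, 7, 8 and 9 (the adipocyte-high arrays), 5 passed with array weights, and 0 to 3 without single arrays. For K8 tumors against K8 glands (1 as reported) it was 2 with array weights, with either covariate and without all 7 arrays that stood apart, and 0 to 1 without single arrays. For K8 tumors against Lgr5 tumors (4 as reported) it was 0 with either covariate, without the adipocyte-high arrays and without all 7, and 1 to 4 without single arrays. For glands and for the difference of the tumor-gland contrasts it was 0 in every fit. Quantile normalization changed no direction and no call. Another probe set rule, a filter at a mean of 6 and eBayes with trend changed no call. Those fits could not change a difference of the 6 genes, each of which has 1 probe set. The list counts without the arrays that stood apart were added after seeing the data, and the cause of these changes was not tested.

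Same-numbered arrays of the tumor groups correlated above 0.1 in 4 of 10 pairs (-0.147 to 0.513), and those of the gland groups in 0 of 2 (-0.275 and -0.0878). These correlations gave no clear sign of pairing by number. They cannot exclude it, and the labels do not say what the numbers mark. With the number as a replicate block 0 members passed for Lgr5 tumors against Lgr5 glands, 1 for K8 tumors against K8 glands and 4 between the tumor lines, and 1 of the 10 number pairs correlated best with its own number.

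Directions turned as follows. For Lgr5 tumors against Lgr5 glands, Lama3 was 0.11 with the replicate block, 1.02 and 0.47 with the adipocyte and epithelial covariates, 0.51 and 0.60 without the adipocyte-high arrays and without all 7, and -0.40 to 0.013 without single arrays. Under the same covariates and removals Lamb3 was 0.54, 0.26, 0.14 and 0.18 and Col17a1 was 0.30, 0.25, 0.13 and 0.17, and Itga6 was 0.13 with the adipocyte covariate. For K8 tumors against K8 glands, Itga6 was 0.026 and 0.078 with the covariates, Itgb4 was 0.090 with the epithelial one, and Col17a1 was -0.019 with arrays centred on their medians and -0.021 to 0.086 without single arrays. Between the tumor lines with the adipocyte covariate, Lama3 was -0.019, Lamb3 -0.11, Itga6 -0.049, Itgb4 -0.035, Col17a1 -0.42 and Dst 0.12. With the epithelial covariate, without the adipocyte-high arrays and without all 7, Col17a1 was -0.27, -0.39 and -0.43 and Dst was 0.19, 0.17 and 0.13. Between K8 and Lgr5 glands, Lamb3 was -0.15 and -0.24 with the covariates and -0.18 to 0.20 without single arrays. For the difference of the tumor-gland contrasts, Itga6 was -0.11 with the adipocyte covariate and -0.0012 without the adipocyte-high arrays, and Col17a1 was -0.032, -0.11 and -0.16 with that covariate and both removals.

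Over all genes the number called also moved by over 1.5 times. For Lgr5 tumors against Lgr5 glands (3168 as reported) it was 690 when these groups were fitted alone, 7815 under array weights, 1737 under the replicate block, 5387 without K8 tumor 9 and Lgr5 tumor 10, 1 without the adipocyte-high arrays, 5 and 0 with the epithelial and adipocyte covariates, and 252 to 4990 without single arrays (252, 1976 and 705 without glands 1, 2 and 3, 4990 without Lgr5 tumor 10). For K8 tumors against K8 glands (1815 as reported) it was 2859 with these groups alone, 6341 under array weights, 2876 with the adipocyte covariate, 3963 without that pair, 5351 without all 7, 30 and 75 without K8 glands 1 and 2, and 3382 without K8 tumor 9. Between the tumor lines (4246 as reported) it was 7997 with array weights 0 with either covariate, without the adipocyte-high arrays or without all 7, and 2291 to 2403 without Lgr5 tumor 2, 6, 7 or 8.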
